A study of Mus musculus with 24 samples.

Results

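The immediate early genes Fos, Fosb, Jun, Junb, Egr1, Egr2, Ier2, Nr4a1 and Dusp1 were followed in mouse pancreatic islets at 4 ages. The values come from every noncontrol probe of the array whose gene name or RefSeq accession belonged to 1 of the 9 genes. This gave 11 of 41174 probes and, with the brightest probe kept for each gene, 9 of the 18071 genes tested. Junb and Ier2 had a second probe, and the probes of Fos, Jun and Egr2 were spotted 10 times on each array. They were chosen by name, with earlier results of these data known.

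Islets came from female NOD/LtJ mice (NOD), a strain that develops autoimmune diabetes, at an age of 10 days, 4 weeks, 12 weeks or 20 weeks, with 6 mice at each age. Each mouse was hybridised on an array of its own (Cy5) against pooled islet RNA of 6 NOD.B10Sn-H2b/J females (NOD.B10) of that age (Cy3), a congenic strain that shares the NOD background with another MHC haplotype and stays free of diabetes. Islets of both strains were isolated by collagenase digestion and put into Trizol, with no treatment of the mice given in the labels. The measure is log2(NOD/pool): a value of -1 means that the NOD islets had a level 2-fold below the pool on that array. Close pool values across the 6 arrays of an age were read as a single pool, so each age has 1 control sample, whose own spread between mice is not in any test. A gene was called where its mean ratio was at least 2-fold from the pool and its adjusted p was below 0.05 over all genes tested.

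Immediate early genes are transcribed within minutes of a stimulus without new protein synthesis, through factors such as CREB and SRF that already sit in the cell, and their messenger RNAs are short-lived. Fos, Fosb, Jun and Junb encode subunits of the AP-1 transcription factor, Egr1 and Egr2 zinc finger factors, Nr4a1 an orphan nuclear receptor, Ier2 a nuclear protein of the serum response, and Dusp1 a phosphatase that switches MAP kinases off. In islets they respond to glucose, depolarisation and cAMP, and in many tissues also to enzymatic digestion, so their level at harvest can hold both the state of the tissue and its handling.

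Promoter sequence, which the choice by name did not use, was compared between the members. RefSeq (GRCm38.p6) promoter windows of 7 of the 9 genes were searched, over the 250 bases before the start and on both strands. No window was at hand for Ier2, and Egr1 was left out of the search. Egr2 has 5 annotated starts, so the 7 genes had 11 windows. Of the windows of Egr2, 3 overlap, so a site in them is counted more than once by window. The core of the cAMP response element, TGACG or CGTCA, was found in 8 of these 11 windows (in 3 of the 5 of Egr2, in none of Jun and in that of each other gene), against 17.8% of 32851 windows of the same length; by gene it was 6 of 7, against 19.8% of 27025 genes with a match in any window. Dusp1 held the whole element TGACGTCA, which contains that core on both strands and occurs in 1.55% of windows. Egr2 held a CArG box, the site read by SRF, in 4 of its 5 windows, against 1.47% of windows. In the 3 windows that overlap it is the same site. By gene Egr2 alone of the 7 held it within these 250 bases, against 1.62% of genes with a match in any window. Sites farther from the start were not searched, so the other genes may hold one there. A GC box (GGGCGG or CCGCCC) was present in 7 of the 11 windows (2 of the 5 of Egr2) and 32.7% of all windows. By gene it was found in all but Junb, against 35.4% of genes. Of the other motifs searched, the AP-1 site and the ETS site were in 0 of the 11 windows (4.46% and 6.91% of all windows). A TATA box was in 1 (12.4%) and a CCAAT box in 5 (33.8%), 3 of them of Egr2. The stretches below show the core match nearest the start, with the matched letters in capitals. Its setting can thus be compared between the 6 genes that hold it. In Egr2 the first capitals mark the CArG box and the second the core. Further core matches of Fos, Egr2, Nr4a1 and Dusp1 lie outside the stretches shown. A match describes these letters only.
Fos (chr12:85473796-85473856, plus strand): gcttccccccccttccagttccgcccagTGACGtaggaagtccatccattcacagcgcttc
Fosb (chr7:19310073-19310133, minus strand): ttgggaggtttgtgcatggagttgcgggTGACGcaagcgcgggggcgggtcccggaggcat
Junb (chr8:84978822-84978882, minus strand): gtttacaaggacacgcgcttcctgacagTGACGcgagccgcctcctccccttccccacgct
Egr2 (chr10:67537795-67537824, plus strand): gtCCATATATGGgcagcgaCGTCAcgggta
Nr4a1 (chr15:101266778-101266838, plus strand): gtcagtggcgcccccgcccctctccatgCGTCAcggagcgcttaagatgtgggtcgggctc
Dusp1 (chr17:26508580-26508640, minus strand): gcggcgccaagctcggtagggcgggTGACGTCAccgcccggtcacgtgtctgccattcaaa

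The array placed the reported probes, in mm9 coordinates as the scanner files give them, at chr12:86817900-86817959 for Fos, chr7:19888477-19888536 for Fosb, chr4:94715864-94715923 for Jun, chr8:87500881-87500940 for Junb and chr10:67004758-67004817 for Egr2. Those of Nr4a1 and Ier2 lay at chr15:101105071-101105130 and chr8:87185211-87185245, and the probe of Egr1 on chromosome 18. The exon each probe reads was not worked out, since no annotation of that build was used. Each reported probe was well above background in both channels on all 24 arrays and saturated on none. Between spots of a single array the log2 ratio had a median SD of 0.07 for Fos, 0.08 for Jun and 0.09 for Egr2, far below the spread between mice.

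Across the series, 42.3% to 64.6% of probes exceeded background in the NOD channel, and 39.3% to 60.4% did so for the pools. The dimmest NOD samples were 20 week mice 5 and 6 (42.3% and 47.6%). As a check of the tissue, 7 of 8 beta cell genes and all 5 other endocrine genes exceeded background in NOD islets on all 24 arrays, as did the 6 acinar genes. NOD was the red channel throughout, so a dye effect on a probe is not removed within an age but drops out of a difference between ages. Ratios of arrays of different ages could run opposite ways (r down to -0.54, 11 pairs below -0.3), and the direction given here is that of the dyes in the labels.

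At 10 days 7 of the 9 members fell in NOD islets against the pool (Fos, Fosb, Junb, Egr1, Egr2, Ier2 and Nr4a1), where 2.36% of all genes tested were called lower, and none rose (1.62% of all genes); Jun and Dusp1 were not called, and with median centring Egr1 alone was. Of the single values 52 of 54 were below 0. In 8 of the 9 members all 6 mice lay below the pool, as in 20.1% of all genes.

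Among the AP-1 subunits, Fos ranged from -3.11 in mouse 2 through a median of -1.58 to -0.07 in mouse 3, with a mean of -1.43 ± 1.17 (SD, n = 6; adjusted p = 0.00264). Its mice split widely: mice 3 and 5 were close to the pool and mouse 2 was more than 3 log2 units below it. Fosb lay between -2.92 and -1.03 with a median of -1.49, and its mean was -1.71 ± 0.66 (adjusted p = 4.93e-05). Every mouse was thus at least 2-fold below the pool. Junb ran from -1.75 to -0.51 around a median of -1.18, with a mean of -1.16 ± 0.45 (adjusted p = 1.11e-07). The second Junb probe gave -1.22 ± 0.51. Jun, the main partner of Fos in AP-1, lay on both sides of 0, from -0.41 to 0.19, with a mean of -0.12 ± 0.26 (adjusted p = 0.497).

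Of the zinc finger factors, Egr1 was lowest in mouse 4 (-2.33) and highest in mouse 3 (-1.07), with a median of -1.79 and a mean of -1.75 ± 0.53 (adjusted p = 1.59e-06). Egr2 was the tightest of the called members, from -2.10 to -1.42 with a median of -1.59 and a mean of -1.70 ± 0.30 (adjusted p = 2.09e-07). In both genes the 6 mice lay at least 2-fold below the pool. Nr4a1 ran from -2.48 in mouse 2 to -0.17 in mouse 1 around a median of -0.92 (mean -1.05 ± 0.78, adjusted p = 0.000894). Ier2 lay between -1.44 and -0.45 with a median of -1.24 (mean -1.06 ± 0.44, adjusted p = 0.000482). Its second probe, a dim one that targets another transcript record, gave -0.19 ± 0.07, in the same direction but far smaller. Dusp1 stayed under the fold needed, from -1.72 to -0.22 with a mean of -0.87 ± 0.66 (adjusted p = 0.00317).

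These ratios depended on how the arrays were scaled. With each array only centred on its median in place of loess, the median of all genes itself stood at 0.38 at this age, and Egr1 alone was called (-1.04), while Jun turned positive (0.64). Measured from that shifted median, Egr1 lay at -1.42, Fosb at -1.32, Egr2 at -1.32, Fos at -1.07, Junb at -0.84, Nr4a1 at -0.73 and Ier2 at -0.72. Ier2 dropped under the fold needed with the mean of both its probes (-0.62) and without mouse 1, mouse 2 or mouse 6 (-0.98, -0.99 and -0.99), and Nr4a1 without mouse 2 (-0.76) or with array weights (-0.88).

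**Figure D1:**
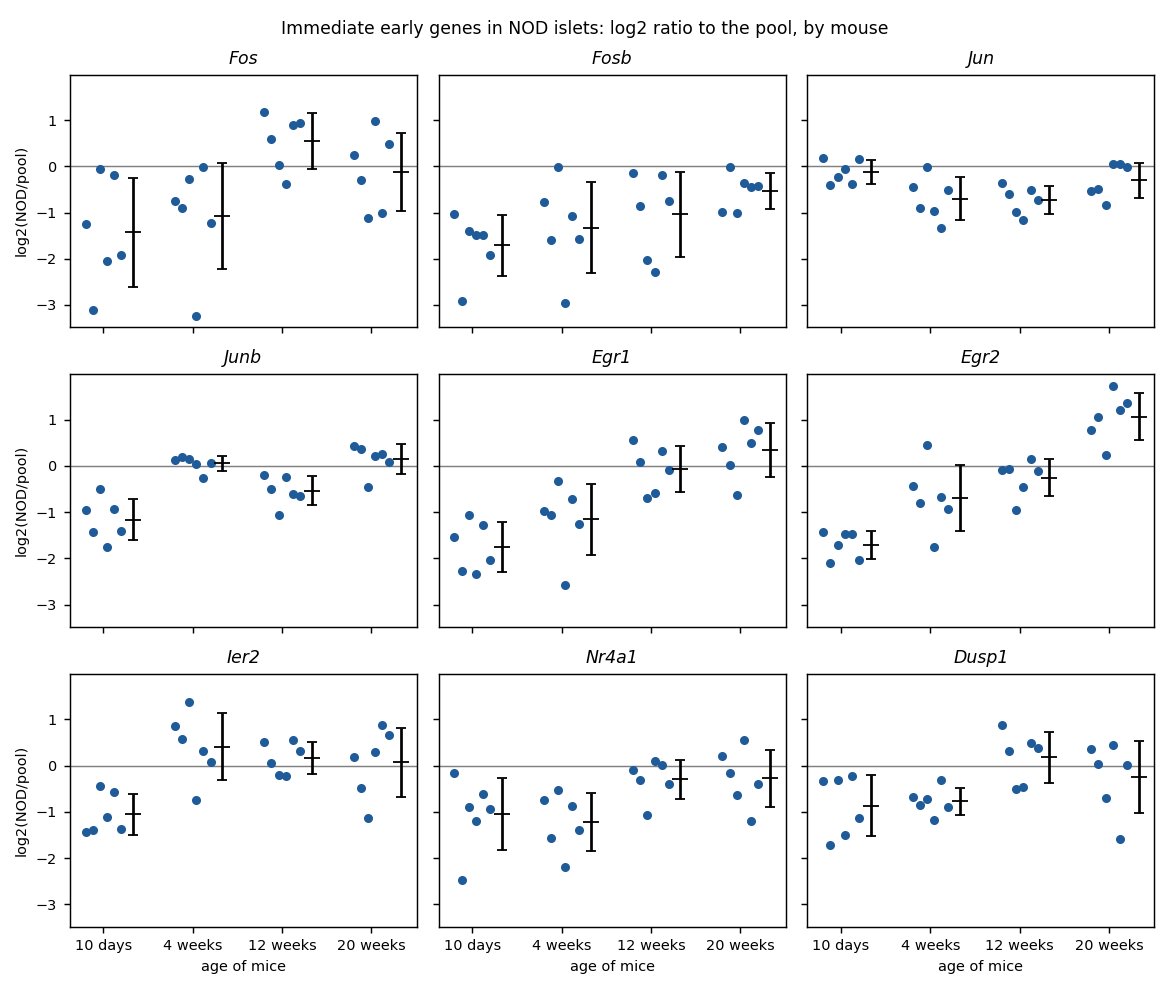
Log2(NOD/pool) of each immediate early gene by age; each point is 1 mouse, the horizontal tick is the mean of 6 mice and the bars are ± 1 SD. The 10 day values of Fosb, Egr1 and Egr2 all lie at or below -1.03, and those of Egr2 at 20 weeks all lie above 0.

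At 4 weeks 4 of the 9 members fell (Fos, Fosb, Egr1 and Nr4a1), against 0.88% of all genes called lower, and none rose (1.91%). Jun, Egr2 and Dusp1 also passed the adjusted p but not the fold, and 43 of 54 single values were below 0. Fosb had a mean of -1.33 ± 0.99 (adjusted p = 0.000803), from -2.95 in mouse 4 to -0.01 in mouse 3. Nr4a1 was below the pool in all mice, from -2.20 to -0.53 with a median of -1.13 (mean -1.22 ± 0.62, adjusted p = 0.000245). Egr1 had a median of -1.02 and a mean of -1.15 ± 0.77 (adjusted p = 0.000306). Fos had a median of -0.82 and a mean of -1.07 ± 1.15 (adjusted p = 0.0204).

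A single animal set part of this. Mouse 4 held the lowest value of 7 of the 9 members (Fos at -3.23, Egr1 at -2.59, Egr2 at -1.76), and without it Fos (-0.63) and Egr1 (-0.87) were no longer called, which left Fosb and Nr4a1. Jun was lower in all 6 mice, from -1.34 to -0.01 (mean -0.70 ± 0.47, adjusted p = 0.000293), and so was Dusp1, from -1.18 to -0.30 (mean -0.77 ± 0.29, adjusted p = 0.008). Junb and Ier2 did not follow the rest: Junb stood at 0.05 ± 0.16 (adjusted p = 0.75) and Ier2 at 0.41 ± 0.72 (adjusted p = 0.137), above the pool in 5 of 6 mice. Under median centring, which put the median of all genes at -0.15, 7 members were called lower, all but Junb and Ier2.

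At 12 weeks only Fosb was called, lower at -1.04 ± 0.91 (adjusted p = 0.00809), where 1.42% of all genes were called lower and 2.09% higher, but it stood at 0.07 with median centring. Its mice fell apart, with mice 3 and 4 at -2.03 and -2.28 and mice 1 and 5 at -0.14 and -0.18. Without mouse 3 or without mouse 4 it dropped under the fold (-0.84 and -0.79), as with array weights (-0.98). Jun (-0.73 ± 0.30, adjusted p = 0.000284) and Junb (-0.54 ± 0.32, adjusted p = 0.00192) lay below the pool in all 6 mice without reaching 2-fold, and both turned positive with median centring (0.39 and 0.64). Fos was above the pool in 5 of 6 mice, from -0.39 to 1.18, with a mean of 0.54 ± 0.61 (adjusted p = 0.274). Egr1 was split 3 to 3 around 0 (-0.07 ± 0.50, adjusted p = 0.85). Egr2, Nr4a1, Ier2 and Dusp1 had means between -0.29 and 0.18 and did not pass. Under median centring the median of all genes was 0.50 and Fos (1.67), Egr1 (1.09), Ier2 (1.32) and Dusp1 (1.31) were called higher. Measured from that median they stood at 1.17, 0.58, 0.82 and 0.81.

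At 20 weeks Egr2 was higher in NOD islets, against 3.87% of all genes called higher, and no member was called lower (1.23% of all genes). Egr2 ranged from 0.25 in mouse 3 through a median of 1.14 to 1.74 in mouse 4, with a mean of 1.07 ± 0.51 (adjusted p = 9.66e-05). All 6 mice were above the pool, and 4 of them at least 2-fold. The value sits close to the fold needed: it was 0.93 without mouse 4 and 0.95 without the dim mice 5 and 6, a setting added once the data were known, each with an adjusted p below 0.05. Median centring gave 0.51 (0.72 from the median of all genes, -0.21), and there Fosb was called instead (-1.17). Fosb was below the pool in all 6 mice (-0.54 ± 0.39, adjusted p = 0.141). Egr1 was above it in 5 (0.34 ± 0.58, adjusted p = 0.243), and Fos was split 3 to 3, from -1.11 to 0.97 (-0.12 ± 0.84, adjusted p = 0.822). The second Junb probe was higher in all 6 mice (0.45 ± 0.22), while the brighter one gave 0.15 ± 0.32 with 5 of 6 above 0.

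By the moderated F test of the ratio over the 4 ages 8 of 9 members passed, all but Fosb (adjusted p = 0.0845). This test has no fold floor and 76% of all genes passed it, so the count is near that of any genes. The mean over the 9 members went from -1.21 ± 0.49 at 10 days through -0.72 ± 0.58 and -0.23 ± 0.42 to 0.02 ± 0.42 at 20 weeks (SD over 6 mice each, values without a test).

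Between 10 days and 4 weeks Ier2 (difference 1.47 ± 0.32 SE, adjusted p = 0.000675), Junb (1.21 ± 0.18, adjusted p = 1.19e-05) and Egr2 (1.01 ± 0.28, adjusted p = 0.00422) rose, 3 of 9 members against 5.16% of all genes. Only Junb had no overlap between its 6 and 6 mice, as had 26.7% of all genes. Both ages shared a slide, and within it the differences were 1.68 for Ier2, 1.34 for Junb and 1.14 for Egr2, with 2 mice of each age. With median centring none of the 3 was called (Ier2 0.47, Junb 0.26, Egr2 -0.09; median of all genes -0.60). Egr2 fell short of the fold without 10 day mouse 2 (0.93) or 6 (0.94) and without 4 week mouse 1 (0.96) or 3 (0.78). It also fell short with the scanner software's processed signals and the deposited values (0.92 each) and with the slide as a random block (0.995). Between 4 and 12 weeks Fos (1.60 ± 0.53, adjusted p = 0.019) and Egr1 (1.09 ± 0.33, adjusted p = 0.012) rose, 2 of 9 against 2.98% of all genes, with overlapping mice (25.3% of all genes had none). Without 4 week mouse 4 neither was called (1.17 with adjusted p = 0.0554, and 0.80), and without 12 week mouse 1 Egr1 was not (0.96). With median centring the differences were 3.05 and 2.53 (median of all genes 0.73), and 8 members were called higher. Dusp1 was called as well without 4 week mouse 5 (1.05), 12 week mouse 3 (1.09) or 12 week mouse 4 (1.08), and Nr4a1 without 4 week mouse 1 (1.02), 4 week mouse 3 (1.06) or 12 week mouse 3 (1.08). Between 12 and 20 weeks Egr2 alone rose (1.32 ± 0.28, adjusted p = 0.00141), against 2.01% of all genes, with no overlap of the mice (12.3% of all genes) and a difference of 0.90 within the slide that held both ages.

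Over the whole span from 10 days to 20 weeks 6 members rose against 7.74% of all genes: Egr2 by 2.77 ± 0.28 (SE, adjusted p = 3.77e-08), Egr1 by 2.09 ± 0.33 (adjusted p = 1.28e-05), Junb by 1.31 ± 0.18 (adjusted p = 2.47e-06), Fos by 1.31 ± 0.53 (adjusted p = 0.0399), Fosb by 1.17 ± 0.42 (adjusted p = 0.023) and Ier2 by 1.13 ± 0.32 (adjusted p = 0.00508). The mice of both ages did not overlap in Egr2, Egr1, Junb and Fosb, 4 of 9 where 26% of all genes showed this. Fos was the weakest of them, missing the threshold without 10 day mouse 1, 2, 4 or 6 or 20 week mouse 1, 4 or 6 (adjusted p from 0.0505 to 0.116). Fos also missed it with the scanner software's processed signals (adjusted p = 0.0527), the deposited values (0.0507) and no filter on dim probes (0.0595). Fosb missed it without 10 day mouse 2 (0.92) and with array weights (adjusted p = 0.0637), and Ier2 without 20 week mouse 5 (0.97). From 10 days to 12 weeks Fos (1.97), Egr1 (1.69), Egr2 (1.44), Ier2 (1.23) and Dusp1 (1.05) rose, 5 of 9 against 5% of all genes, and Egr1, Egr2 and Ier2 had no overlap (25.1% of all genes). Dusp1 was not called without 10 day mouse 2, 4 or 6 or 12 week mouse 1 or 5 (differences from 0.88 to 1.00). From 4 to 20 weeks Egr2 (1.76) and Egr1 (1.49) rose, against 3.65% of all genes, with overlapping mice (9.25% of all genes had none), and Nr4a1 was called as well without 4 week mouse 1, 3 or 5 or 20 week mouse 3 or 5 (1.02 to 1.13). Without the dim 20 week mice 5 and 6 the span from 10 days held 4 calls: Fos (1.38) and Fosb (1.11), by their adjusted p, and Ier2 (0.78) were lost and Nr4a1 (1.03) was gained. With the mean over both probes in place of the brightest, Ier2 was not called in any comparison with 10 days (0.94, 0.77 and 0.67). Median centring, which moved the median of all genes by -0.64 between 10 days and 20 weeks, left Egr2 (1.45) as the only one of the 6 still called higher over that span: Egr1 dropped to 0.72, and Fos (-0.07), Fosb (-0.22), Ier2 (-0.24) and Junb (-0.08) changed sign. The uncalled Dusp1 (0.63 to -0.75) and Nr4a1 (0.77 to -0.60) changed sign too, and Jun was called lower (-1.57). It also turned Egr2 from 12 to 20 weeks (-0.26) and ended the calls of Egr1 from 4 to 20 weeks (adjusted p = 0.115) and of Dusp1 from 10 days to 12 weeks (adjusted p = 0.0604). Comparisons that share an age share its arrays and its pool. The 10 day and 4 week arrays lay on other slides than the 12 and 20 week arrays. Differences across that divide, also those from 4 to 12 weeks above, thus cannot be told apart from differences between slides. The same holds for the channel levels below.

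The 2 channels did not contribute alike. The channel levels below are normalized log2 intensities, each compared only with the same probe at other ages; the 4 pools are 1 sample each, so their differences have no test. Egr2 in the pool stood at 11.91 at 10 days and at 9.22, 9.59 and 9.13 at the later ages, while the NOD mice gave 10.21 ± 0.33, 8.53 ± 0.69, 9.33 ± 0.42 and 10.19 ± 0.52. Its rise from 10 days to 20 weeks thus held a pool change of -2.78 and a NOD change of -0.01. From 12 to 20 weeks, by contrast, Egr2 changed by 0.87 in the NOD channel and by -0.46 in the pool.

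Ier2 also had its larger change in the pool. Its pool level was 14.51 at 10 days and between 12.50 and 12.89 later, a change of -2.01 to 4 weeks, while NOD changed by -0.54, and the F test of its NOD level across ages did not pass (adjusted p = 0.305). Egr1 in the pool was 14.68 at 10 days and between 13.03 and 13.53 later; the NOD mice were lowest at 4 weeks (12.07 ± 0.78) and highest at 20 weeks (13.87 ± 0.44). Junb changed by -1.40 in the pool from 10 days to 4 weeks and by -0.18 in NOD, which went from 14.32 ± 0.33 at 12 weeks to 15.28 ± 0.35 at 20 weeks. From 10 days to 20 weeks, by contrast, Junb changed by 1.14 in NOD and by -0.17 in the pool.

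In Fos and Dusp1 the larger change from 10 days to 20 weeks lay in the NOD channel. Fos in NOD islets was 10.97 ± 1.14 at 10 days and 11.20 ± 1.20 at 4 weeks. At 12 and 20 weeks it was 12.33 ± 0.53 and 12.33 ± 0.72. Its pool lay between 11.79 and 12.45 at the 4 ages. Dusp1 in NOD islets was 10.72 ± 0.60 and 10.89 ± 0.31 at the young ages and 11.79 ± 0.47 and 11.80 ± 0.64 at the later ones, with the pool between 11.59 and 12.04. For these genes the change from 10 days to 20 weeks was 1.36 and 1.08 in the NOD channel against 0.05 and 0.45 in the pool. Single steps differed. From 4 to 12 weeks Fos changed by 1.13 in NOD and by -0.47 in the pool. From 12 to 20 weeks the larger change lay in the pool: 0.66 for Fos and 0.44 for Dusp1, against 0.001 and 0.02 in NOD. From 10 days to 20 weeks Fosb changed by 1.55 in NOD and by 0.38 in the pool. By the F test on the NOD channel 8 of 9 members passed (all but Ier2), with 57% of all genes.

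**Figure D2:**
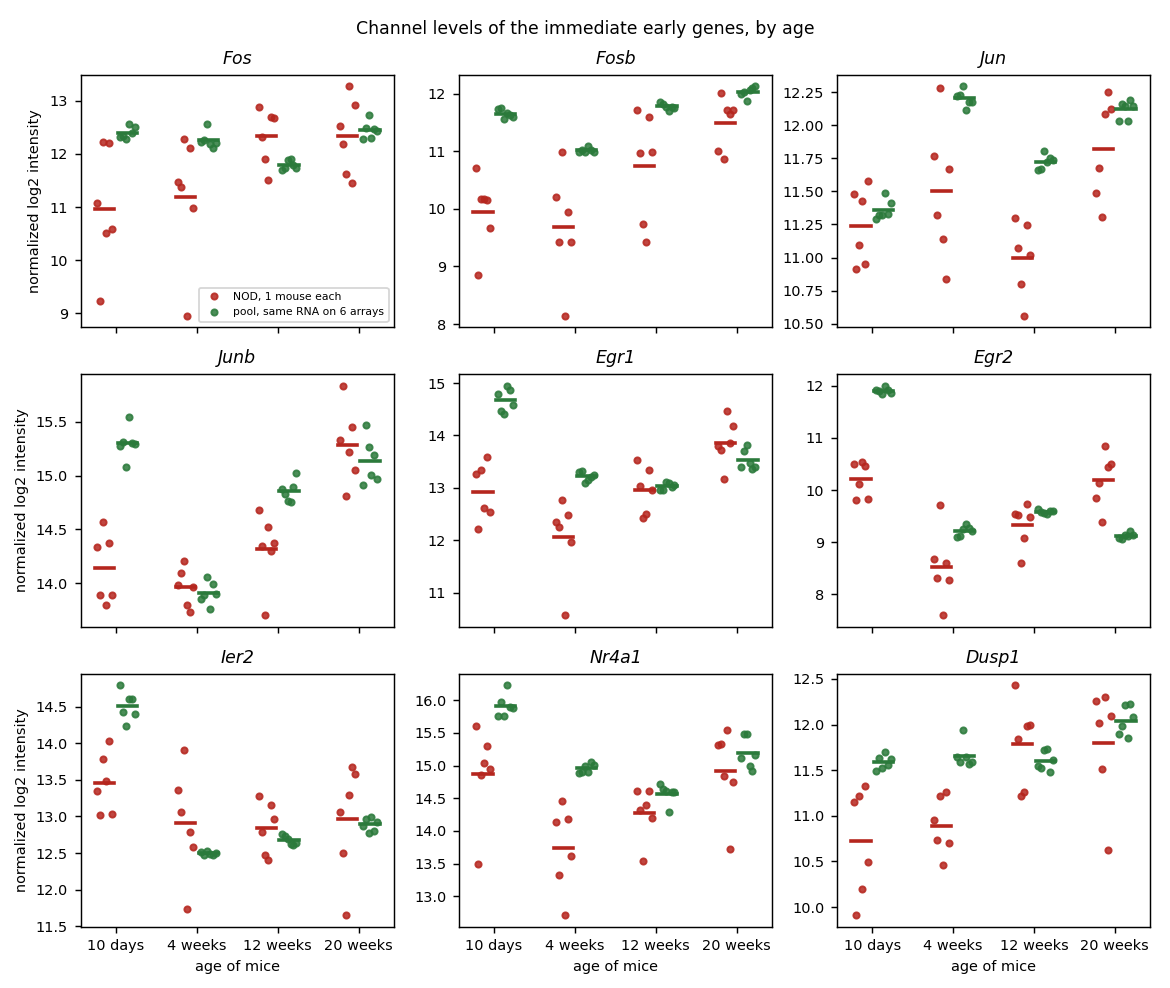
Normalized log2 intensity of each gene in the NOD channel (red, 1 mouse per point) and the pool channel (green, the same pool on 6 arrays) by age, with bars at the means; the vertical scale differs between panels. The pool of Egr2 stands at 11.91 at 10 days and between 9.13 and 9.59 later, and the red points of Fos spread far more widely than the green ones.

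Most members varied more from mouse to mouse than most genes, Jun and Junb less clearly. Within an age the log2 ratio of Fos had an SD of 0.97, above that of 99.3% of all genes tested, and Fosb had 0.77 (98.2%). Nr4a1, Egr1, Dusp1 and Ier2 had SDs between 0.59 and 0.62, above more than 95% of genes, Egr2 0.51 (92.7%), Jun 0.36 (83.3%) and Junb 0.33 (79.4%). The median gene had 0.20. Because spread depends on brightness, the same was read among the 3107 genes at least as bright as Egr2, where Fos was above 97.5%, Jun above 70.3% and Junb above 65%. Within an age the NOD level had an SD of 0.94 for Fos, 0.78 for Fosb and 0.30 for Junb, beside 0.21 for the median gene. The pool level had 0.13, 0.07 and 0.15, beside 0.08, but these are repeated arrays of 1 RNA and hold technical spread only.

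After the mean of each age was subtracted, all 36 pairs of members had a correlation above 0 over the 24 mice, from 0.15 (Jun with Dusp1) to 0.89 (Fos with Egr1), with a median of 0.62. Over all pairs of genes 52% were above 0 and 4.09% reached the members' median; the values share an array and its normalization. At 10 days mouse 2 was the lowest in 6 of 9 members (23.1% of all genes). At 4 weeks mouse 4 was the lowest in 7 (25.1%) and mouse 3 the highest in 6 (28.6%). At 12 weeks mouse 1 was the highest in 6 (12.5%), and mice 3 and 4 the lowest in 5 and 4 (16.7% and 18.3%). At 20 weeks mouse 3 was the lowest in 7 (10.6%) and mouse 4 the highest in 5 (15.2%).

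**Figure D3:**
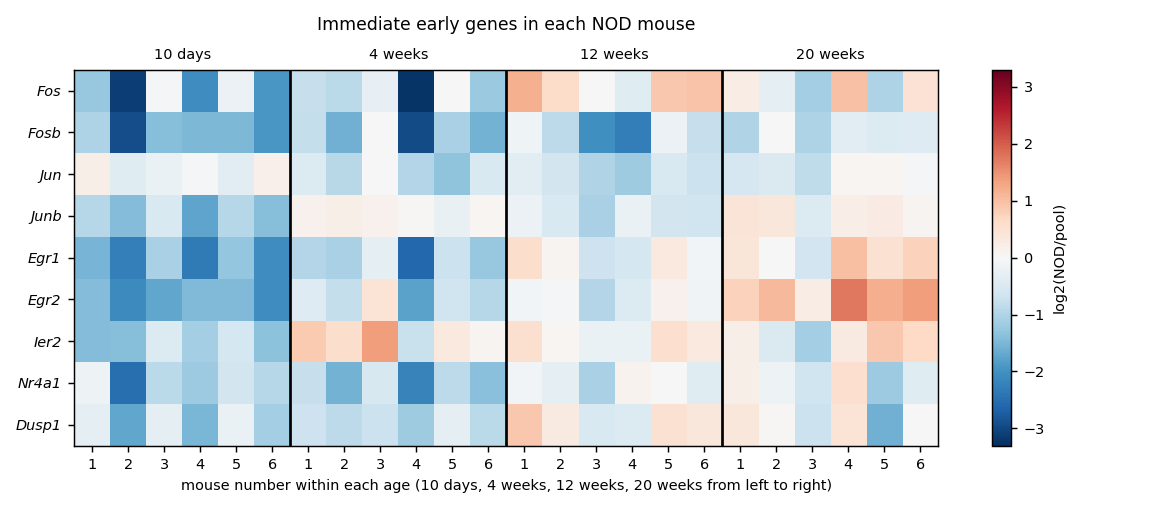
Log2(NOD/pool) of the 9 members (rows) in each of 24 NOD mice (columns, 6 per age), blue below and red above the pool. Columns of 1 colour, such as 10 day mouse 2 and 4 week mouse 4, show animals in which most members are low together.

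Fos, the member with the widest spread, was set against each other member and against 12 other measures in 1 family of 20 relations, each over 24 mice after subtraction of age means. Egr1 followed it most closely (Pearson r = 0.89, Spearman rho = 0.9; permutation p = 1e-05 for both, the smallest that 100000 permutations within age can give; Benjamini-Hochberg adjusted 6.67e-05 and 1e-04). Without the 2 mice farthest from the median of Fos, 4 week mouse 4 and 10 day mouse 2, r was 0.86. Dusp1 was next (r = 0.81, rho = 0.85, permutation p = 1e-05 for both, adjusted 6.67e-05 and 1e-04; 0.85 without those mice). Nr4a1 (r = 0.73, rho = 0.67), Fosb (0.73, 0.66), Egr2 (0.68, 0.61) and Ier2 (0.67, 0.68) passed as well, with adjusted permutation p between 6e-04 and 0.0036 for r and between 0.00335 and 0.0112 for rho, and r between 0.55 and 0.57 without those mice. Junb (r = 0.43, rho = 0.39; adjusted permutation p = 0.0808 and 0.131) and Jun (r = 0.28, rho = 0.33; adjusted permutation p = 0.291 and 0.174) did not pass. With slide and age both subtracted, r was 0.90 for Egr1, 0.83 for Dusp1 and 0.29 for Jun; single slides held 4 arrays, too few for a value of their own.

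Among all 18071 genes, the 10 whose within-age deviations were most like the mean of the members were Egr1 (r = 0.93), Fos (0.87), Lrrc1 (0.85), Egr2 (0.83), Mettl15 (0.83), Gtf2b (0.83), Rars2 (0.83), Egr4 (0.82), Fosb (0.82) and Zfp862-ps (0.81), each member being left out of the mean it was set against. Nr4a1 came at rank 65, Ier2 at 75, Dusp1 at 147, Jun at 1028 and Junb at 1390. The correlations are over the same 24 arrays and carry no test.

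Of the other measures, the mean of 5 duct cell markers ran against Fos (r = -0.88, rho = -0.81; permutation p = 1e-05 and 7e-05, adjusted 6.67e-05 and 0.000467; -0.83 without the 2 farthest mice, -0.88 with slide subtracted). The markers did not act alike: Krt19 (-0.85), Cftr (-0.78) and Krt8 (-0.77) ran against Fos, while Krt7 (0.04) and Spp1 (0.01) did not. The part of duct cells in the members' values was not tested. Of the remaining 11 measures none passed after adjustment. The closest were T cell (r = 0.50) and endothelial cell markers (0.53), each with adjusted permutation p = 0.0549, and the mean of 6 heat shock genes, which many cells raise under stress, had r = -0.16 (rho = -0.28; adjusted permutation p = 0.523 and 0.271). Beta cell markers gave 0.40, fibroblast and stellate cell markers 0.51 and the share of probes above background in the NOD channel 0.21.

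**Figure D4:**
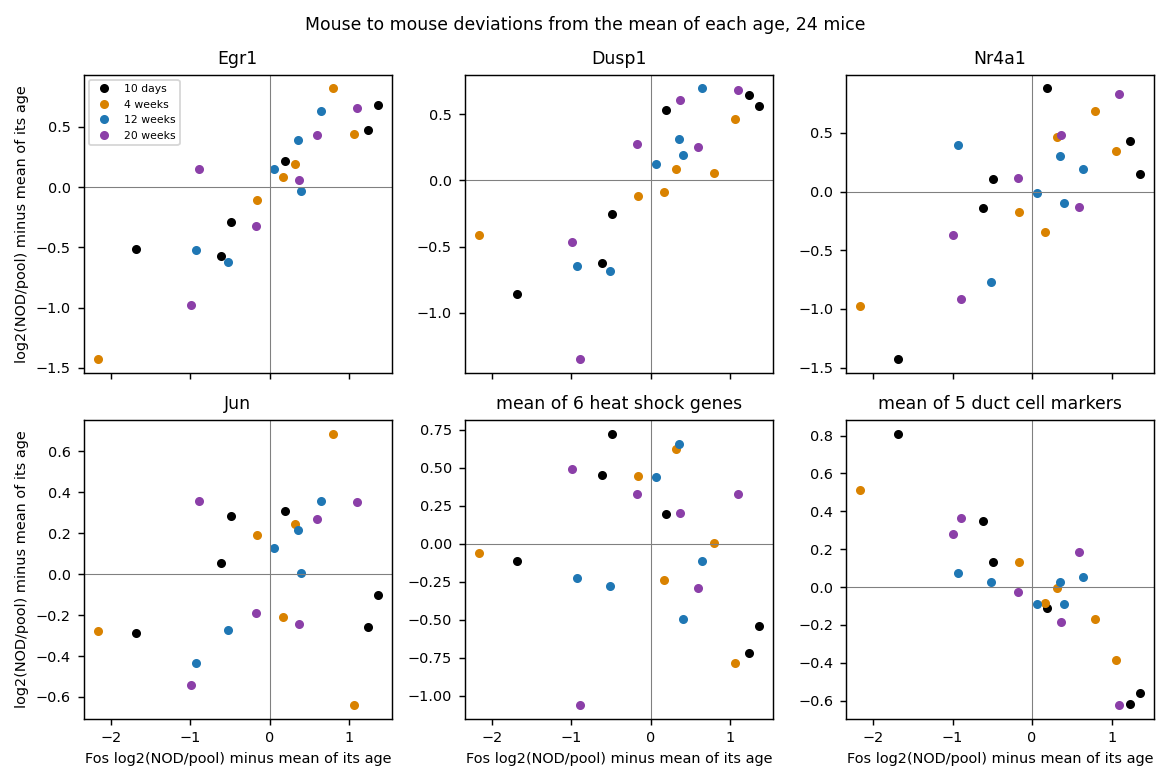
Deviation of each mouse from the mean of its age, on the log2(NOD/pool) scale, for 3 members of high correlation (Egr1, Dusp1, Nr4a1), for Jun, and for the means of 6 heat shock genes and 5 duct cell markers (vertical) against Fos (horizontal); colours give the age. Egr1 rises with Fos (r = 0.89), the duct cell mean falls with it (r = -0.88) and the heat shock mean shows no clear trend (r = -0.16).

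At 10 days the sets of genes for other cell types and for stress also differed from the pool. All 6 fibroblast and stellate cell markers were lower, and their mean ran from -2.93 to -0.92 over the mice. Of the B cell markers 3 of 5 were lower, of 8 beta cell markers 5 were higher, of 5 other endocrine markers 4 and of 6 acinar markers 2. Of 5 endothelial markers 2 were lower and of 5 macrophage markers 1, while no duct or T cell marker was called. Heat shock genes went the opposite way to the members: 5 of 6 were higher, among them Hsph1 (2.04 ± 0.83), Hspa1a (1.80 ± 0.59) and Hspa1b (1.49 ± 0.43), with a list mean from 0.70 to 2.14 over the mice. In whole islets fewer cells of a type and less RNA per cell cannot be told apart, and the part of these differences in the members' ratios was not tested. At 4 weeks all 6 acinar markers were higher, 3 of 8 beta cell markers were lower and heat shock genes were on the low side (2 of 6 lower, Dnajb1 at -1.60 ± 0.78). At 12 weeks 2 of 5 duct cell markers and 3 of 8 beta cell markers were lower. The mean of the duct cell list was below 0 in all 6 mice at 12 weeks (-1.18 ± 0.07) and at 20 weeks (-0.41 ± 0.37). At 12 and 20 weeks 4 of 5 B cell markers and all 5 T cell markers were higher, with T cell list medians of 2.45 and 3.11, and at 20 weeks all 8 beta cell markers were lower (median -1.31).

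Genes related to the members were read from further lists. In a list of 6 other AP-1 subunits and partners none was called at 10 days or 4 weeks, with a median of -0.45 at 10 days that turned to 0.27 under median centring. At 12 weeks Jund (-1.83 ± 0.40), a subunit that many resting cells hold, and Maff (-1.99 ± 0.72) fell. At 20 weeks Batf (2.00 ± 0.73), an AP-1 factor of lymphocytes, rose. The 12 week values of this and the further lists are those with loess, and their values under median centring are not given here. That setting put the median of all genes at 0.50 at 12 weeks, with 99.3% of the called genes higher. Among 4 EGR and NAB genes Egr4, a zinc finger factor like Egr1, fell at 10 days (-1.91 ± 1.10) and at 4 weeks (-1.22 ± 1.19). Neither of the other 2 NR4A genes was called at any age. Nr4a3 exceeded background on only 8 of 24 arrays in NOD and 0 in the pool, and Nab2 on 5 and 3. The ratios of Nr4a3 and Nab2 thus lie near the floor and could hide a change. Of 4 further MAP kinase phosphatases Dusp2, which is strong in lymphocytes, rose at 12 weeks (2.20 ± 0.47) and at 20 weeks (2.88 ± 0.55), and Dusp10 fell at 12 weeks (-1.16 ± 0.85).

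A list of 30 other early response genes had 6 lower and 2 higher members at 10 days, with a median of -0.41 beside 0.01 for all genes, but 0.28 under median centring. Csrnp1 (-1.39 ± 0.43), Sgk1 (-1.34 ± 0.42) and Ccn2 (-1.20 ± 0.14) fell most. At 4 weeks it held 1 of each, Npas4 (-1.15 ± 0.55) and Sik1 (1.02 ± 0.14). At 12 weeks 5 were lower, led by Gadd45a (-1.49 ± 0.38) and Klf10 (-1.38 ± 0.51), and 2 higher. At 20 weeks 4 were higher and none lower, with Sik1 (1.99 ± 0.41), a kinase induced by cAMP, and Ptgs2 (1.80 ± 0.92), the inducible cyclooxygenase, in front. NF-kB early response genes, the inflammatory counterpart, had 3 of 10 lower at 10 days (Il6 at -1.36 ± 1.21; list median -0.75), none at 4 weeks, 4 lower and 1 higher at 12 weeks (Il6 at -4.17 ± 0.58) and 4 higher at 20 weeks (Il1b at 2.61 ± 0.52; list median 0.88). Of 11 upstream factors and kinases Map2k1, a kinase that activates ERK, rose at 10 days (1.12 ± 0.10) and no other passed at any age. None of 8 reference genes was called at any age, with means between -0.90 and 0.58.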

How the data were processed

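Dual-colour Agilent arrays of 24 mice were used. Per the file headers, Feature Extraction (version 10.7.3.1) wrote the scanner files, with the intensity of each of 45018 spots and its local background (1639 spots are controls) and a log10 ratio of red over green after dye normalization. The authors also deposited a table of log2 ratios (22122 rows), which equal the scanner ratio on a log2 scale (r at least 0.9998) in scale and direction and were not centred, with column medians from -0.18 to 0.09.

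Here intensities were background-corrected (normexp, offset 50) and loess-normalized within arrays, with outlier-flagged spots left out, in limma 3.58.1 (R 4.3.3). Probes well above background in a channel on at least 6 arrays were kept (25910), the brightest per gene. Channel levels were also scaled between arrays (Aquantile). A single limma model with a mean per age covered 24 arrays and 18071 genes, with Benjamini-Hochberg adjustment over all genes; a call needed an adjusted p below 0.05 and a 2-fold difference. Tested on simulated data of this size, 64% of genes changed by 1 and 98% of those changed by 1.5 on the log2 scale at 10 days were called. Of those changed by 1, 96% passed the p threshold, so the fold needed set most of that loss. Within an age the members had SDs from 0.33 (Junb) to 0.97 (Fos), beside 0.20 for the median gene. These shares thus need not hold for the members. Errors after ± are SDs over 6 mice unless SE is given. P-values measure the spread between the arrays of single NOD mice, which also holds the technical spread of both channels. The spread between the mice of a pool is not in them.

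All 9 members were named whatever their result, and from each other list up to 3 called genes per comparison by size. Members and lists were chosen with earlier results of these data known. Replicate numbers did not pair the mice. The number of arrays limits the precision.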

Additional observations from a re-analysis of the deposited data

Results flagged for a closer look

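A single value stood apart within its group by Dixon's criterion among the 36 groups of 6 mice (9 members at 4 ages), where chance marks about 1 in 20 groups: Junb in mouse 5 at 4 weeks was at -0.25, against 0.04 in the nearest mouse.

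A difference of the ratio between ages, by limma's moderated F test with adjustment over all genes, was found in Egr2 (adjusted p = 2.76e-07), Junb (4.56e-06), Egr1 (2.61e-05), Ier2 (0.00156), Fos (0.00743), Jun (0.0189), Dusp1 (0.0192) and Nr4a1 (0.0234). The test includes any difference between the 4 pools, and 76% of all genes passed it.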

How the results depend on the processing

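Median centring in place of loess moved the median of all genes to 0.38, -0.15, 0.50 and -0.21 at the 4 ages, and the count of members called became 1 at 10 days (main 7), 7 at 4 weeks (main 4), 4 at 12 weeks (all higher; main 1), 1 for 4 weeks against 10 days (Jun, lower; main 3 higher), 8 for 12 against 4 weeks (all higher; main 2), 7 for 20 against 12 weeks (all lower; main 1 higher), 2 for 20 weeks against 10 days (Egr2 higher and Jun lower; main 6 higher) and 1 for 20 against 4 weeks (higher; main 2 higher). Of the 90 member values it changed the sign of 32, of which 14 were called under either setting: Egr1 (1.09) and Fosb (0.074) at 12 weeks; Egr2 for 4 weeks against 10 days (-0.095); Ier2 (1.19) and Jun (1.40) for 12 against 4 weeks; Egr1 (-1.41), Egr2 (-0.26), Jun (-1.32), Junb (-1.18) and Nr4a1 (-1.84) for 20 against 12 weeks; and Fos (-0.072), Fosb (-0.22), Ier2 (-0.24) and Junb (-0.080) for 20 weeks against 10 days. The cause was not tested. Of all genes called, the share higher at the 4 ages was 40.6%, 68.5%, 59.5% and 75.8%, against 98.1%, 17.3%, 99.3% and 24.8% with median centring and 55.4%, 57.3%, 64.3% and 49.6% with the scanner software's processed signals. The scanner software's processed signals and the deposited value table kept every count within 1.5 times except that of 12 against 4 weeks (4 in each, main 2). Array weights left 0 members at 12 weeks, and 0 were called at 20 weeks without both dimmest samples, a choice made after seeing the data. No background correction, no or a stricter filter on dim probes, the mean over a gene's probes, the slide as a random block and each age alone kept every count within 1.5 times of the main one.

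Leaving out 1 mouse at a time gave 5 to 7 members at 10 days, 2 to 4 at 4 weeks, 0 to 1 at 12 weeks, 0 to 1 at 20 weeks, 2 to 3 for 4 weeks against 10 days, 0 to 4 for 12 against 4 weeks, 1 for 20 against 12 weeks, 4 to 5 for 12 weeks against 10 days, 4 to 6 for 20 weeks against 10 days, 2 to 3 for 20 against 4 weeks, 8 to 9 for the F test of the ratio and 7 to 8 for that of the NOD level. Over single members 30 calls were lost and 11 gained among 2160 values. With the replicate number as a block 7 members were called at 10 days and 0 calls of single members were lost or gained at any comparison. Samples of the same number did not deviate together (mean r = -0.03, other numbers 0.01; 1 of 24 samples correlated best with its own number), so the numbers were not treated as pairing. The scan date as a block was not run, since all slides were scanned on 1 day. Low signal limits the second Ier2 probe, above background in the NOD channel on 22 of 24 arrays.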
